A study of Mus musculus with 3 samples.

Results

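The mitochondrial carriers of solute carrier family 25 (Slc25) were described in endothelial cells (ECs) of the adult mouse lung. They were taken as every gene symbol of the deposited expression table made of Slc25a and a number, which gave 47 of 24346 genes. The data are 3 bulk RNA-seq libraries, S38, S44 and S52, of 1 condition: lung ECs of wild type male C57BL/6J mice aged 6 to 8 weeks, with no treatment or transgene. The cells were labelled by VE-cadherin antibody injected into the living animal, sorted as CD31+ VE-cadherin+ CD45- Podoplanin- cells and lysed without culture. With 1 condition there was no contrast to test, so the levels below are a description and differences between libraries measure spread. The labels do not say whether the 3 libraries came from separate animals, so the spread may be partly technical.

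The inner mitochondrial membrane lets few solutes through by itself, and Slc25 proteins carry them across it. Each carrier is a short protein of repeated units that swings between a face open to the cytosol and a face open to the matrix. Members move ADP against ATP, phosphate, the acids of the citric acid cycle, amino acids, acylcarnitines, coenzymes and iron, and a few sit in the peroxisome or the outer membrane. Lung ECs line a bed of thin capillaries through which gas is exchanged, and cultured ECs are known to make much of their ATP by glycolysis.

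Levels are FPKM, sequenced fragments divided by transcript length and by the mapped total of the library, a scale per length on which genes may be compared. Detection here means an average over the libraries of 1 FPKM or more. By this measure 35 of 47 carriers were detected (74.5%), and the same 35 reached 1 FPKM in every library. Of all genes 48.3% were detected, and among the 295 other genes with a Slc symbol 44.4% were. A mean of at least 10 FPKM was reached by 18 carriers, against 25.7% of all genes. Of the 12 carriers under 1 FPKM, 10 were above 0 and 2 were listed at 0 in every library.

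Endothelial genes were high in every library, and S52 stood apart from the others in genes of some other cell types. All 10 endothelial markers were detected, with a median of 482 FPKM in S38, 533 in S44 and 484 in S52. Markers of platelets, red cells, alveolar type 2 cells, airway cells, leukocytes, neutrophils and mesothelial cells were lower in S52 by their medians. In the order S38, S44, S52, the 4 platelet genes had medians of 244, 216 and 9.11 FPKM. The 5 alveolar type 2 genes had 182, 121 and 33.7 FPKM, and the 4 airway genes 46.7, 43.6 and 10.6 FPKM. The 5 leukocyte genes had 4.30, 2.06 and 0.516 FPKM, with *Lyz2* at 1047, 780 and 166 FPKM. The 4 neutrophil genes had 8.11, 9.32 and 0.158 FPKM, and the 3 mesothelial genes 0.560, 1.705 and 0 FPKM. Mural markers, with medians of 6.11, 4.05 and 9.59 FPKM, were highest in S52 by their medians. Fibroblast markers had medians of 6.896, 5.63 and 6.18 FPKM. The 4 alveolar type 1 markers were split, with 2 highest and 2 lowest in S52. Their medians were 26.9, 20.5 and 34.6 FPKM, while their sums, 348, 373 and 273 FPKM, were lowest in S52. The 5 erythroid genes had medians of 56.5, 147 and 0.0165 FPKM, and all 4 detected ones were lowest in S52. Their fall was uneven. *Hbb-bs* was at 185, 308 and 0.00319 FPKM, *Hba-a2* at 56.5, 321 and 0.0165 FPKM and *Hba-a1* at 147.4, 146.7 and 90.99 FPKM. These are bulk samples, in which fewer cells of a type and less RNA per cell cannot be told apart. The depth, estimated from the spacing of the lowest values, was about 37300000, 39100000 and 35200000 fragments.

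The ADP/ATP carriers and the phosphate carrier dominated the family. *Slc25a5* encodes an ADP/ATP carrier found in most proliferating and many resting tissues, *Slc25a3* the carrier that brings in phosphate for ATP synthesis, and *Slc25a4* the ADP/ATP carrier best known from heart and skeletal muscle. Their promoters are shown because these 3 genes held 53.2% of the family's summed FPKM; each runs from 250 bases before to 50 bases after the RefSeq start, in GRCm38.p6, with matches to the motifs named here in capitals (GC box GGGCGG or its reverse complement, CCAAT in either direction, and the core of the site bound by NRF-1, a regulator of mitochondrial genes). The positions are chrX:36795347-36795646 on the plus strand for *Slc25a5*, chr10:91123918-91124217 on the minus strand for *Slc25a3* and chr8:46211013-46211312 on the minus strand for *Slc25a4*.
*Slc25a5*: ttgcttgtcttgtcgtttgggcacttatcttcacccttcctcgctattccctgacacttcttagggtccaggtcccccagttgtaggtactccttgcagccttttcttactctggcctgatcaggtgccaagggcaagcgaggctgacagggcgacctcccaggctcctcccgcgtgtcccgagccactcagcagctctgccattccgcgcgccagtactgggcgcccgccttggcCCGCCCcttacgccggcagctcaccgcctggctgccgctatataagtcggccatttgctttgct
*Slc25a3*: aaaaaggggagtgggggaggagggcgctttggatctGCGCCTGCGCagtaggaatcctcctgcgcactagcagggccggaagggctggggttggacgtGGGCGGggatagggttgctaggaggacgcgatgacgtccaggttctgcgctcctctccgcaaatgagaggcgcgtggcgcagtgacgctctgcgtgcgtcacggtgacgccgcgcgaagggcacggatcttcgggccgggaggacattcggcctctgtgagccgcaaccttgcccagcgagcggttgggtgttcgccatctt
*Slc25a4*: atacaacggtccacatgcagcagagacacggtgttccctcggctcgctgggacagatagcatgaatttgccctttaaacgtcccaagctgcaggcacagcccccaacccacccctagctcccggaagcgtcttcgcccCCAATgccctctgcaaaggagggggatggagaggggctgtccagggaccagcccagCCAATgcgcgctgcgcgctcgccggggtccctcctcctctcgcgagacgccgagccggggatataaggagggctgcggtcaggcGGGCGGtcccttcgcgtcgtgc
In capitals, *Slc25a5* showed 1 GC box, *Slc25a3* showed 1 GC box and 1 NRF-1 core, and *Slc25a4* showed 1 GC box and 2 CCAAT boxes. Promoters were matched for 36 of 47 carriers, some with several starts. The GC box was in 94.1% of the 34 promoters of 26 detected carriers, in 62.7% of the 11312 promoters of detected genes and in 35.7% of all 32851 promoters of this length. CCAAT was in 50%, 37.2% and 37.4% of the same sets, and the E box CACGTG in 17.6%, 9.99% and 7.15%. The NRF-1 core was in 1 of the 34, or 2.94%, against 10.2% and 4.603%. TATAAA was in 0 of 34, 7.26% and 13.6%. Both strands were searched, starts of 1 gene can overlap, and a match describes letters only.

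*Slc25a5* (X:36795651-36798807, plus strand, GRCm38) was at 158 FPKM in S38, 191 in S44 and 249 in S52, a mean of 199.5 ± 46.2 (SD, n = 3). Its mean ranked 479 of 24346 genes. *Slc25a3* (10:91116574-91124059, minus strand) was at 133, 149 and 150 FPKM, a mean of 144 ± 9.32. *Slc25a4* (8:46206797-46211284, minus strand) was at 131, 123 and 143 FPKM, a mean of 132 ± 9.86. The order *Slc25a5*, *Slc25a3*, *Slc25a4* held in each of the 3 libraries, and the ranges of *Slc25a3* and *Slc25a4* overlapped. Of the 51-base windows of the *Slc25a5* transcript, 45.6% also occur in other annotated genes, 9 in all, led by the predicted gene *Gm5560*, so reads of that gene could have been split or assigned elsewhere. The windows of *Slc25a4* occur in no other gene, and no carrier shares a window with another carrier. Of the 4 markers of muscle, *Actc1*, an actin of the heart, was at 18.6, 13.4 and 30.6 FPKM, highest in S52. *Tnnt2* was at 7.48, 3.96 and 0.854 FPKM, *Ckm* at 0.669, 0.653 and 0 FPKM and *Myh6*, a heart myosin, at 0.642, 0.0785 and 0 FPKM. The part of muscle RNA in the *Slc25a4* level was not tested.

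**Figure D1:**
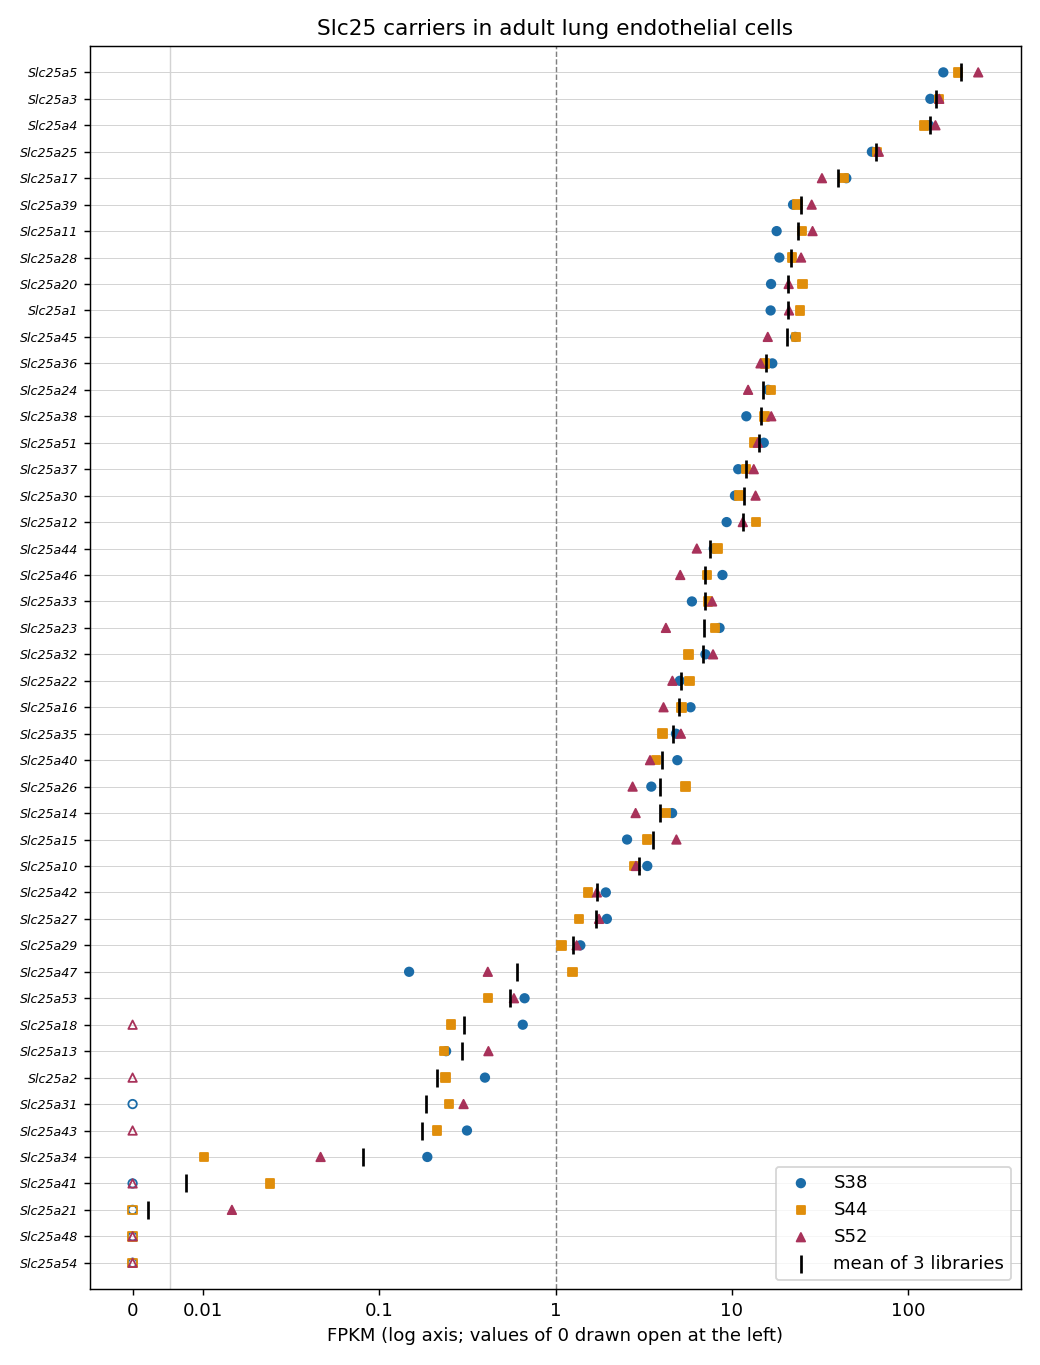
FPKM of the Slc25 carriers reported by name on a log axis, with a circle for S38, a square for S44, a triangle for S52, a bar for the mean and a dashed line at 1 FPKM; values of 0 are drawn open at the left. The 3 highest carriers lie right of all other carriers in every library, and the detected carriers shown lie right of the dashed line in every library.

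The calcium-regulated carriers exchange ATP-Mg for phosphate and so set the total adenine nucleotide of the matrix. *Slc25a25* (2:32414487-32451445, minus strand) was the highest of them at 62.2, 66.6 and 68.1 FPKM, with a coefficient of variation of 4.67%. *Slc25a24* followed at 16.1, 16.6 and 12.4 FPKM and *Slc25a23* at 8.51, 8.02 and 4.23 FPKM. The order of these 3 genes was the same in each library. *Slc25a25* exceeded *Slc25a24* by 3.87-fold, 4.01-fold and 5.51-fold, and *Slc25a24* exceeded *Slc25a23* by 1.89-fold, 2.07-fold and 2.92-fold. *Slc25a41*, grouped here with the adenine nucleotide and phosphate carriers, was listed at 0.0241 FPKM in S44, about 1 fragment, and at 0 in S38 and S52. *Slc25a31*, the ADP/ATP carrier of the testis, was at 0, 0.249 and 0.301 FPKM. Together the 8 adenine nucleotide and phosphate carriers made 61.9%, 61.8% and 65.6% of the family sum.

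The carriers of other nucleotides and cofactors were all detected, 9 of 9 in the table; *Slc25a52*, a further member by function, has no row. *Slc25a17*, the peroxisomal carrier of coenzyme A, FAD and NAD, led at 44.6, 43.0 and 32.4 FPKM, lowest in S52. The pyrimidine nucleotide carrier *Slc25a36* was at 17.0, 15.5 and 14.5 FPKM, and its paralogue *Slc25a33* at 5.93, 7.33 and 7.73 FPKM. *Slc25a36* was thus the higher in each library, by 2.86-fold, 2.11-fold and 1.88-fold. *Slc25a51*, the mitochondrial NAD carrier, was at 15.2, 13.3 and 14.0 FPKM, with a coefficient of variation of 6.55%. The carriers of folate (*Slc25a32*), S-adenosylmethionine (*Slc25a26*) and coenzyme A (*Slc25a42*), with *Slc25a16*, which has been linked to coenzyme A, had means from 1.72 FPKM for *Slc25a42* to 6.86 FPKM for *Slc25a32*. *Slc25a26* spread the most of these, at 3.49, 5.46 and 2.74 FPKM.

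**Figure D2:**
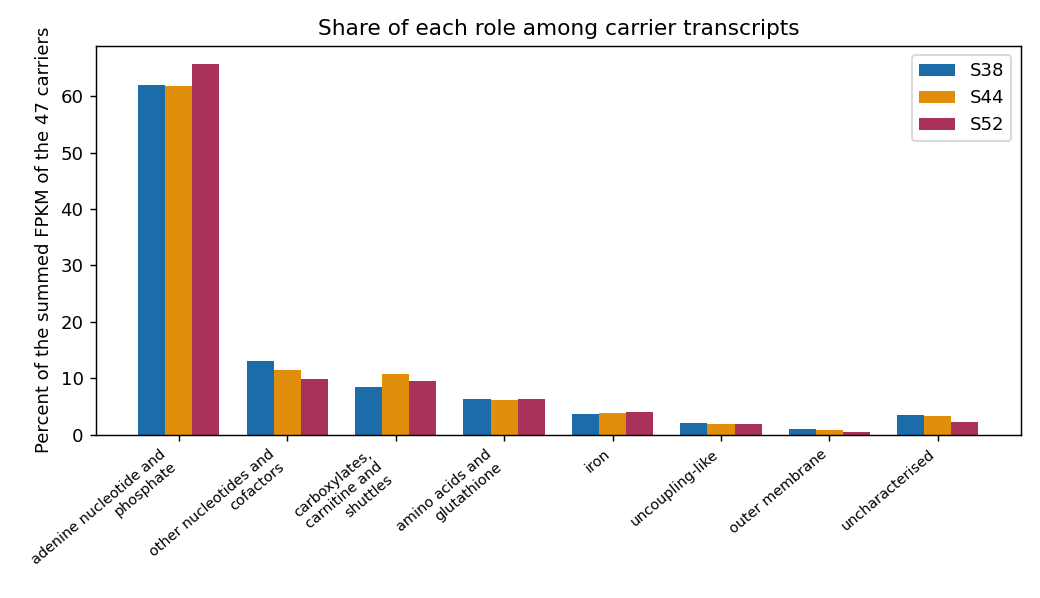
Percent of the summed FPKM of the 47 carriers held by each role, with a bar for each library. Adenine nucleotide and phosphate carriers hold 61.8% to 65.6% in the 3 libraries, and no other role exceeds 13.1%.

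Carriers of carboxylates, carnitine and the redox shuttles included 6 detected of 9. *Slc25a11*, the oxoglutarate/malate carrier of the malate-aspartate shuttle, was at 17.9, 24.9 and 28.7 FPKM. *Slc25a20*, which brings acylcarnitines in for fatty acid oxidation, was at 16.7, 25.2 and 20.99 FPKM, and *Slc25a1*, which exports citrate for lipid synthesis, at 16.6, 24.4 and 21.1 FPKM. All of these were lowest in S38. The succinate and malate carrier *Slc25a10* was lower than *Slc25a11* in each library, at 3.31, 2.79 and 2.86 FPKM, a ratio of 5.41, 8.92 and 10.0. The exons of *Slc25a11* overlap those of *Rnf167* on the other strand by 189 bases, and the libraries keep no strand.

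Transcripts for the shuttle's aspartate/glutamate carrier came almost wholly from 1 of its 2 genes in these bulk samples. *Slc25a12* (2:71271063-71367749, minus strand), known from brain, heart and muscle, was at 9.34, 13.7 and 11.5 FPKM. *Slc25a13* (6:6041218-6217173, minus strand), the form known from liver, was at 0.240, 0.233 and 0.417 FPKM. The ratio of *Slc25a12* to *Slc25a13* was 39.0, 58.8 and 27.7, the widest among pairs with both genes above 0 in every library. Of the glutamate carriers, *Slc25a22* was at 5.07, 5.77 and 4.601 FPKM and *Slc25a18* at 0.652, 0.255 and 0 FPKM. In S52 a count of 0 for *Slc25a18* allows up to 0.0507 FPKM (3 fragments at the estimated depth, counting error only). Against that limit *Slc25a22* was at least 90.7-fold higher there. S52 listed 9923 genes at 0, beside 8324 in S38 and 8119 in S44, and this limit does not allow for that difference. *Slc25a21*, the carrier of oxodicarboxylates, was at 0, 0 and 0.0146 FPKM.

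Amino acid and glutathione carriers included 6 detected of 7. *Slc25a39*, which brings glutathione into the matrix, was at 22.2, 23.6 and 28.3 FPKM and its paralogue *Slc25a40* at 4.91, 3.72 and 3.44 FPKM. Their ratio was 4.53, 6.35 and 8.25, and *Slc25a39* was the higher in each library. *Slc25a38*, the glycine carrier needed for haem synthesis, was at 12.1, 15.3 and 16.7 FPKM. The ornithine carrier of the urea cycle, *Slc25a15*, was at 2.55, 3.30 and 4.85 FPKM, highest in S52. Its single-exon relative *Slc25a2* was at 0.398, 0.238 and 0 FPKM, so that *Slc25a15* exceeded it by 6.39-fold, 13.9-fold and, against the limit of 0.0748 FPKM, at least 64.8-fold. *Slc25a44*, which takes up branched-chain amino acids, had a mean of 7.51 ± 1.05 FPKM and *Slc25a29*, a carrier of basic amino acids, 1.26 ± 0.161 FPKM.

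Both mitoferrins, which bring iron in for haem and iron-sulphur clusters, were above 10 FPKM. *Slc25a28*, the form of most tissues, was at 18.6, 21.9 and 24.7 FPKM, and *Slc25a37*, the form of developing red cells, at 10.9, 12.1 and 13.3 FPKM. Their ratio was 1.71, 1.82 and 1.86, with an SD of 0.06 around a mean log2 ratio of 0.79 on FPKM + 1, the smallest SD of the 11 pairs compared. *Slc25a37* was highest in S52. The part of red-cell RNA in its level was not tested. In S52 *Hbb-bs* and *Hba-a2* were nearly absent, while *Hba-a1* was at 90.99 FPKM and *Alas2* at 3.56 FPKM. Each of these 4 genes was lowest in S52. The exons of *Slc25a37* share 381 bases with a transcript on the other strand.

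Uncoupling-like carriers are related to the uncoupling proteins and were detected in 3 of 3 cases. *Slc25a30* was at 10.4, 10.998 and 13.6 FPKM and *Slc25a14* at 4.58, 4.24 and 2.85 FPKM, so *Slc25a30* was the higher by 2.27-fold, 2.60-fold and 4.79-fold. *Slc25a27*, known from the brain, had a mean of 1.69 ± 0.306 FPKM. *Slc25a46*, an outer membrane protein linked to mitochondrial shape, was at 8.84, 7.23 and 5.10 FPKM.

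Of the 8 carriers with no settled substrate, 2 were detected. *Slc25a45* was at 22.9, 23.1 and 15.98 FPKM and ranked with the citrate and carnitine carriers. *Slc25a35* had a mean of 4.67 ± 0.567 FPKM, and 31.3% of its exonic bases are shared with *Rangrf* on the other strand, a gene at 7.02 FPKM. *Slc25a47*, known from liver, was at 0.148, 1.24 and 0.413 FPKM, so that S44 was the only library at or above 1 FPKM. *Slc25a53* was at 0.668, 0.413 and 0.581 FPKM. *Slc25a48* and *Slc25a54* were listed at 0 in every library, which at the depth of S52 leaves room for a level of at most 0.0271 FPKM for the former and 0.0591 FPKM for the latter, and *Slc25a34* and *Slc25a43* were under 0.4 FPKM.

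**Figure D3:**
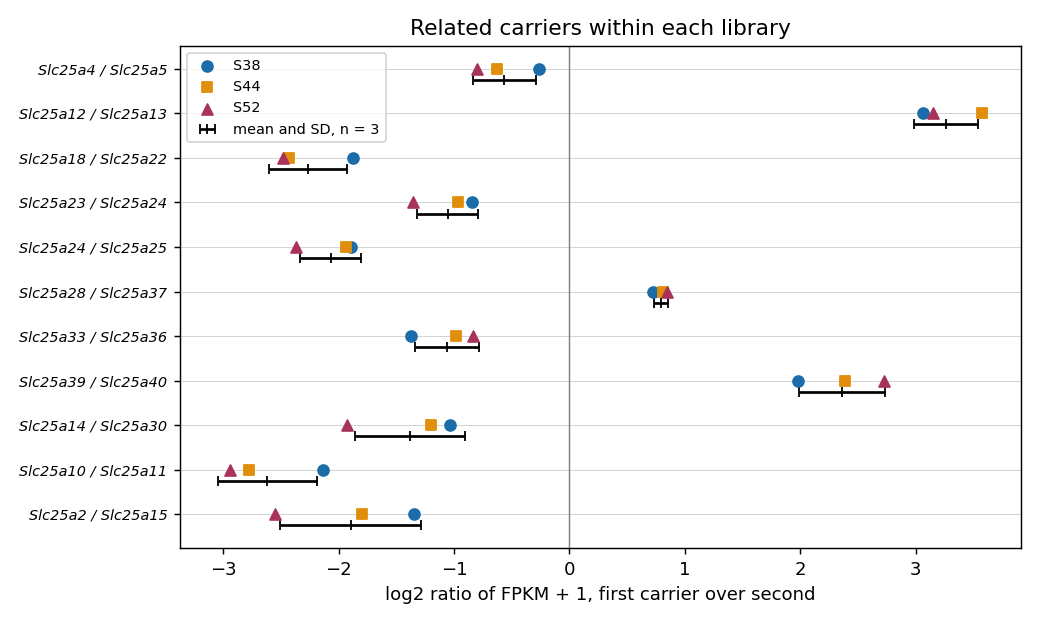
log2 ratio of FPKM + 1 between the members of 11 related pairs, first gene over second, in S38 (circle), S44 (square) and S52 (triangle), with the mean and SD of the 3 libraries as a black bar. Each pair lies on 1 side of 0 in all 3 libraries.

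In every one of the 11 pairs the same gene was the higher in 3 of 3 libraries. The exact two-sided permutation test by sign flips over 3 libraries gave p = 0.25 for each pair, which is the smallest value this design can reach, so no pair could pass a threshold of 0.05. The narrowest pair was *Slc25a5* over *Slc25a4*, at 1.21-fold, 1.55-fold and 1.75-fold. On the log2 scale of FPKM + 1, *Slc25a4* was lower than *Slc25a5* by a mean difference of -0.57 ± 0.27. Among detected carriers ranked by mean, 27 of 34 neighbouring pairs had overlapping ranges. Ranges did not overlap between *Slc25a5* and *Slc25a3*, *Slc25a4* and *Slc25a25*, *Slc25a25* and *Slc25a17*, *Slc25a17* and *Slc25a39*, *Slc25a51* and *Slc25a37*, *Slc25a12* and *Slc25a44*, and *Slc25a10* and *Slc25a42*.

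The family as a whole summed to 823 FPKM in S38, 898 in S44 and 956 in S52, a mean of 892 ± 66.6. The 3 highest carriers held 53.2% ± 3.01 and the 5 highest 65.1% ± 1.83 of it. Rescaling the libraries to the same total turned the order of the sums to 993, 780 and 937 FPKM. A set of 1283 genes was chosen by symbol alone: microRNAs, small nucleolar and other small RNAs, and any symbol starting with mt-. These genes take 59.6% to 70.2% of the totals, and rescaling without them gave 833, 886 and 957 FPKM. The median of the carriers' means was 6.86 FPKM, beside 0.784 FPKM over all genes and 0.588 FPKM over the other Slc genes. Among detected genes these medians were 11.5, 11.2 and 6.98 FPKM.

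Between libraries, the median ratio of the highest to the lowest library, on FPKM + 1, was 1.32 over detected carriers and 1.35 over all 11770 detected genes. No carrier of 35 exceeded 2-fold, where 12.7% of detected genes did. *Slc25a23* came closest, at 1.82-fold on FPKM + 1 and 2.01-fold on FPKM as deposited. S52 lay over 1.5-fold below both other libraries for 1 carrier, *Slc25a23*, against 11.7% of detected genes, and over 1.5-fold above both for 0 carriers, against 3.97%. S52 was the lowest library for 12 of 35 carriers (46.3% of detected genes) and the highest for 15 (33.9%). S38 was the lowest for 14 (25.4%) and the highest for 12 (37.1%), and S44 the lowest for 9 (28.4%) and the highest for 8 (28.9%). The median log2 ratio of S52 to the mean of S38 and S44 was 0.04 over carriers and -0.08 over all detected genes. S52 lay above that mean for 20 carriers and below it for 15, a split that turned to 16 and 19 when libraries were rescaled to the same total. It stayed at 20 and 15 on rescaling without the 1283 genes chosen by symbol, and was 22 and 13 on rescaling by the median ratio.

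**Figure D4:**
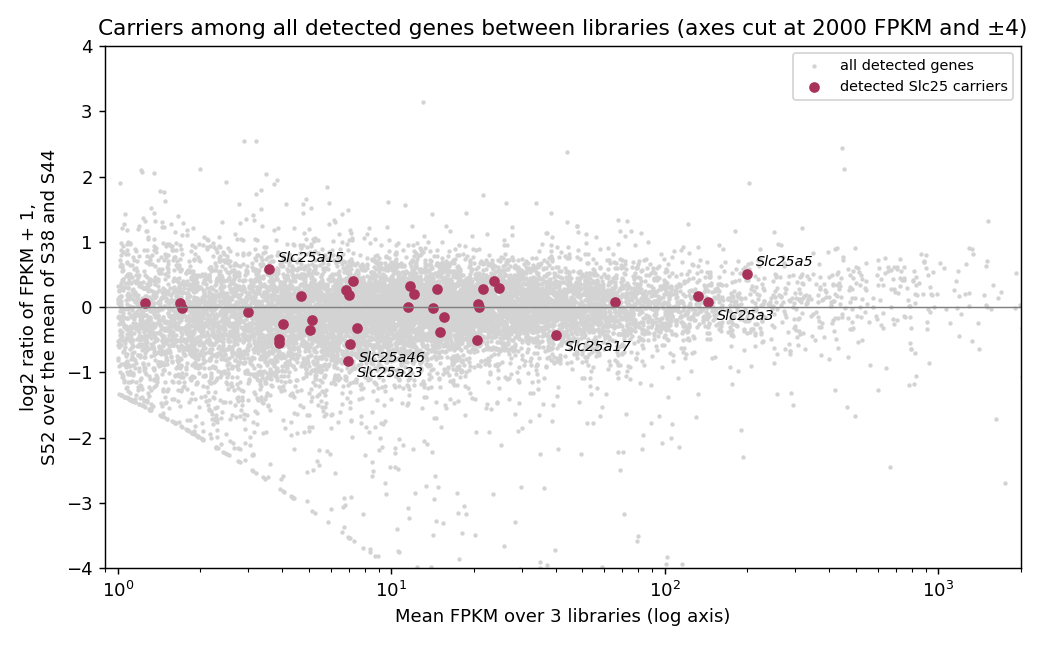
log2 ratio of FPKM + 1 of S52 to the mean of S38 and S44 against the mean FPKM (log axis), with all detected genes in grey and the 35 detected carriers in red; 125 genes lie outside the axes. The carriers sit near 0, with *Slc25a15* and *Slc25a5* the highest and *Slc25a23* the lowest.

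Carriers of the same family under other symbols were also described. *Ucp2*, an uncoupling protein of many tissues, was at 178, 186 and 158 FPKM, so it lay between *Slc25a5* and *Slc25a3* by mean. *Mtch1* had a mean of 87.7 ± 2.48 FPKM and *Mtch2*, an outer membrane insertase, 21.5 ± 1.18 FPKM. *Ucp3* was at 0.00373 FPKM by mean and *Ucp1*, the brown fat protein, at 0 in every library.

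Genes that serve the carriers were detected throughout, where 48.3% of all genes were. Of all detected genes 12.7% differed by over 2-fold between libraries, the share to set beside the counts below. The 3 porins, which let solutes through the outer membrane, were at 66.8 FPKM for *Vdac1*, 102.6 for *Vdac3* and 111 for *Vdac2*. All 13 genes of the carrier import route were detected, from *Timm10* at 5.59 FPKM to *Tomm22* at 58.5 FPKM, and 1 of them, *Timm9*, differed by over 2-fold between libraries. All 12 carriers of other families were detected, from *Sfxn5* at 1.08 FPKM to the pyruvate carrier *Mpc1* at 43.8 FPKM, with 1, *Sfxn1*, over 2-fold. Of 22 enzymes next to the carriers all were detected, from *Gpd1* at 1.14 FPKM to *Mdh2* at 105 FPKM, and 4 differed by over 2-fold: *Cpt1a*, *Alas2*, *Got1* and *Gpd1*. *Cpt1a*, which makes the acylcarnitine that *Slc25a20* moves, was at 46.3, 63.2 and 27.9 FPKM. *Alas2*, the haem enzyme of red cells, was at 4.37, 13.9 and 3.56 FPKM, and *Alas1*, its form in other cells, at 47.4, 49.3 and 44.9 FPKM.

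**Figure D5:**
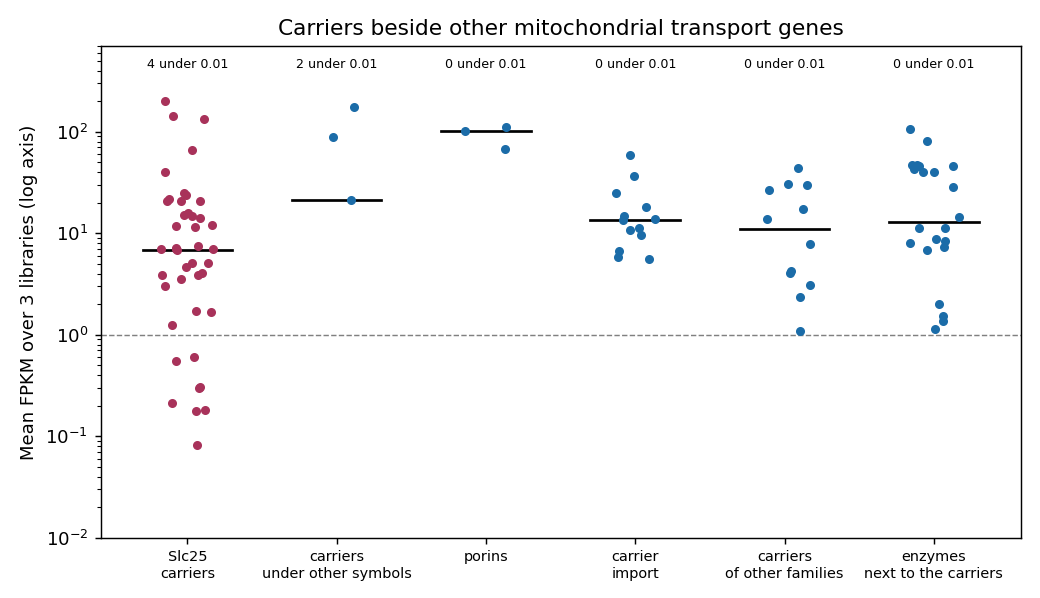
Mean FPKM over the 3 libraries (log axis) of each gene in the Slc25 family and in 5 lists of related genes, with a line at each list's median and the number of genes at or under 0.01 FPKM above; the dashed line is 1 FPKM. The carriers span the widest range, 4 of 47 at or under 0.01 FPKM, with a median of 6.86 FPKM against 12.9 FPKM for the enzymes and 103 FPKM for the porins.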

How the data were processed

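RNA of sorted adult lung ECs was made into poly-A selected, non-stranded libraries and read as 51 bp paired ends. The authors deposited FPKM values, 1 for each gene symbol and library, with mm10 as the build. The submitters' processing notes name bcl2fastq 2.17, FastQC 0.11.5, Trimmomatic 0.36, TopHat2 2.1.0 and Cufflinks 2.2.1, with no role or order, and the paper's methods describe STAR and HTSeq for its own counts, which were then corrected for batch and normalized with the authors' edgeR; which route made the FPKM, and its annotation, are not given in the sources used here. Whether the FPKM were corrected for batch is likewise not given. All 3 columns were used (0 left out), with no rescaling. FPKM divides by transcript length and by the mapped total, so short genes and the library's composition move it.

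Python 3.11.15, NumPy 2.4.6 and pandas 2.3.3 were used. Detection was a mean of at least 1 FPKM and ratios used FPKM + 1, which understates changes of low genes. No count model was fitted. Values in every library were printed for carriers with a mean of at least 10 FPKM, for 11 related pairs, for the 3 highest carriers under 1 FPKM and for carriers over 2-fold between libraries; values in every library of *Slc25a21*, *Slc25a26*, *Slc25a31*, *Slc25a41* and *Slc25a46* were added after they were seen. The carriers and lists were chosen with earlier results of these data known. In all 11 pairs the 3 libraries agreed in direction. The p-values of the exact permutation test therefore reflect only that agreement in these 3 libraries, not the size of their spread. Positions and 51-base windows are from GENCODE M21, where 47 of 47 carriers matched, and promoters from RefSeq GRCm38.p6. Depth was estimated from low values among 7077 genes, of which 228 were used in S38, 297 in S44 and 161 in S52. The depth and a length correction were chosen to bring these values closest to whole fragments. With that choice 77.0% to 81.8% of the same values lay within 0.15 of a whole fragment, which is therefore no check of the estimate. The method was tested only on simulated data whose depths and length correction were among the values searched. That test does not give the error of the estimate in these libraries. Alternatives were left-out libraries, 3 scalings, detection thresholds of 0.1, 3 and 10 FPKM or in every library, and a pseudocount of 0.1 FPKM. Proteins were not analysed here, and 1 carrier, included in the counts and sums, is not reported by name here.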

Additional observations from a re-analysis of the deposited data

How the results depend on the processing

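Leaving out a library in turn (replicates 1, 2 and 3 are S38, S44 and S52) moved the median of the carriers' means from 6.86 FPKM to 6.12 to 6.38 FPKM. The count of carriers for which S52 lay over 1.5-fold below every other library kept went from 1 to 2 without S38 (*Slc25a23* and *Slc25a26*) and to 2 without S44 (*Slc25a23* and *Slc25a46*). The count for which S52 lay over 1.5-fold above every other library kept was 0 without S38 and 3 without S44 (*Slc25a5*, *Slc25a11* and *Slc25a15*). The median log2 ratio of S52, 0.041, was 0.031 without S38 and 0.077 without S44; without S52 these results have no value. Rescaling to the same total gave 1 carrier over 2-fold (*Slc25a23*, 2.19-fold, with 18.3% of detected genes over 2-fold) and a median log2 ratio of -0.019, and moved the libraries by 0.27, -0.20 and -0.03 on the log2 scale. Rescaling by the median ratio gave a median log2 ratio of 0.089. A threshold of 10 FPKM left 18 carriers detected, 0 for which S52 lay over 1.5-fold below both others, and a median log2 ratio of 0.081. With a pseudocount of 0.1 FPKM the log2 ratio of *Slc25a12* to *Slc25a13* was 4.89 in place of 3.26, that of *Slc25a18* to *Slc25a22* -4.13 in place of -2.26 and that of *Slc25a2* to *Slc25a15* -3.79 in place of -1.90, by construction for low genes. The levels of the 35 detected carriers moved by less than 1 SD under 3 scalings. Each scaling is centred on an average of the libraries, so a mean over them could move little, and this says little of how firm the levels are. Values of *Slc25a21* and *Slc25a41* above 0 lie under the limit that a count of 0 allows at the estimated depth.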
